A study of Mus musculus with 12 samples.

Results

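Cultured fibro-adipogenic progenitors (FAPs) of mouse limb muscle labelled as Bap1-deleted with human SMN added (Smn1OE) were compared with FAPs labelled as Bap1-deleted with nothing added (Bap1KO). The members are the 6 RNA-seq libraries labelled Smn1OE (replicates 1 to 3) and Bap1KO (replicates 1 to 3), out of 12 in the series. The other libraries are WT cultures, given ethanol, and Smn1OE_K186R cultures, given 4-hydroxytamoxifen (4-OHT) and the K186R form of SMN. All cells were sorted from dissociated muscle as negative for dead-cell stain, lineage markers and Vcam, and positive for Sca1. Cultures were kept in alpha-MEM, and the serum content was 20%. Both groups compared here had received 1 μM 4-OHT, with the medium replaced after 24 h. By the labels, Bap1 deletion is common to both and the SMN construct alone differs. Group names stand throughout for the libraries so labelled, since Bap1 reads did not bear out the label in Smn1OE, as given below. The treatment text names Rosa-CreER as the driver of deletion, whereas the source label names Prrx1Cre. The vectors named for SMN are pcDNA4-HisMAX and pLVX, with no word on which was used in these cells. Strain and age are not given in the sources used here.

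Several features of the libraries divide the groups in the same way as SMN does. Bap1KO libraries came from culture media batches A, B and C and Smn1OE libraries from batches D, E and F, so no batch holds both. Neither group carried an empty vector. Xist, the RNA of the inactive X chromosome, had 12928 to 20478 counts in the Bap1KO libraries and 1 count in each Smn1OE library, and Y-linked genes had counts in Smn1OE alone. Records that did not align took 1.22 to 1.78% in Bap1KO and 3.26 to 3.71% in Smn1OE, and mitochondrial genes 1.52 to 1.67% and 1.92 to 2.05% of counts. SMN, vector, media batch, donor, the sex-linked difference and the Bap1 difference given below cannot be told apart in any result that follows. Sex chromosome genes were left out. Gene counts per library ran from 51.2 to 67.8 M. The labels do not say that replicates came from separate animals, so p-values measure the spread between libraries, pooled over the 4 groups of the series. Libraries of a shared media batch enter that fit as independent. A fit with a random term for media batch put the correlation within a batch at 0.453. In bulk RNA, fewer cells of a type and less RNA per cell cannot be told apart.

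FAPs are mesenchymal cells that lie between muscle fibres, where they secrete matrix, support regeneration and innervation, and can become fibroblasts or adipocytes. SMN, the protein lost in spinal muscular atrophy, works with Gemin proteins to load Sm proteins onto small nuclear RNAs, which become subunits of the spliceosome. BAP1 is a nuclear deubiquitinase that removes ubiquitin from histone H2A and so opposes Polycomb complex 1.

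The label FAP was set against marker genes. Ly6a, which encodes the sorting antigen Sca1, stood at 871, 652 and 630.2 CPM in Bap1KO and 343, 287 and 198 CPM in Smn1OE, and Pdgfra, the receptor most used to mark FAPs, at 35.8, 26.2 and 39.3 CPM in Bap1KO and 20.7, 19.6 and 13.9 CPM in Smn1OE. Vcam1, whose product was used to exclude cells in the sort, nonetheless stood at 175, 103 and 138 CPM in Bap1KO and 74.4, 102 and 64.1 CPM in Smn1OE. Of the satellite cell and myoblast transcription factors, Pax7 and Myod1 had a mean of 0 and 0 CPM in Bap1KO, and 0.0113 and 0.00497 CPM in Smn1OE. C1qa, C1qb and Tyrobp of macrophages and Cd3e of T cells had no read in any of the 6 libraries. Pecam1 of endothelium averaged 0.386 CPM in Bap1KO and 0.496 CPM in Smn1OE.

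The targeted genes were read as a check of the labels. Smn1 stood at 30.5, 35.1 and 33 CPM in Bap1KO and 5593, 3792 and 4887 CPM in Smn1OE, and reads of the human construct that align to the mouse gene are part of the Smn1OE values. Bap1 stood at 42.3, 39.3 and 39.4 CPM in Bap1KO and 50, 47.5 and 49.7 CPM in Smn1OE, with the 3 Smn1OE libraries above the 3 Bap1KO libraries (log2 fold change 0.28, SE 0.0692, adjusted p = 0.00924). WT libraries, which carry no deletion by label, stood at 49.7, 49.7 and 52 CPM. Bap1KO was below WT (-0.32, adjusted p = 0.0139), whereas Smn1OE was not called against WT (-0.042, adjusted p = 0.638). The Bap1 count thus did not show the labelled deletion in Smn1OE. Counts over the whole gene include transcripts that lack a deleted exon, so they are a weak check in either group.

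Of 16034 autosomal genes tested, 5373 were called at an adjusted p under 0.05 by edgeR's quasi-likelihood test, which is 33.5% of them. In Smn1OE 2524 genes (15.7%) were higher and 2849 (17.8%) lower. At least 2-fold changes were called for 916 higher and 842 lower genes, and at least 4-fold changes for 401 and 242. Called higher genes made up 47.0% of the calls with TMM scaling and 60.7% (3371 higher, 2182 lower) with no scaling factor, where the median log2 fold change of all genes moved from -0.011 to 0.070. Without Bap1KO replicate 1 the calls were 1566 higher and 1835 lower, and without Smn1OE replicate 3 they were 1616 and 1792. The groups did not overlap in CPM for 48.6% of the genes tested. Gene lists are described by their called members and read against the 33.5% over all genes. Among the 37 lists that are not markers of other cell types, the called share ran from 13.0% in the contractile list to 86.7% in the list of granzymes and Serpinb9 inhibitors. That top share includes members with hardly a read in Bap1KO. At 36.1% the neurotrophic list lay close to the background.

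**Figure D1:**
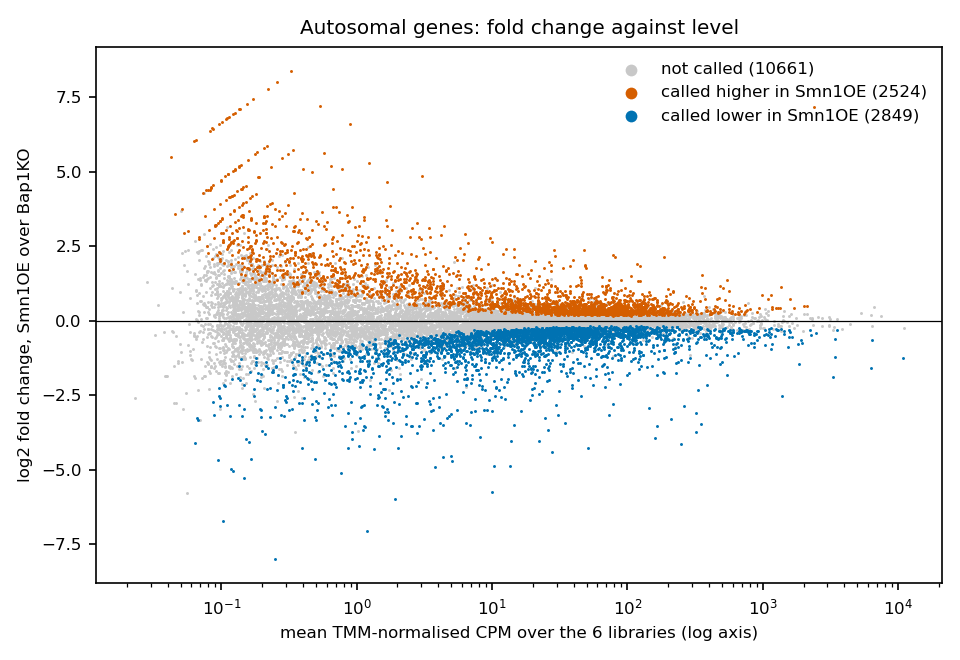
Each point is an autosomal gene, with its mean TMM-normalised CPM over the 6 libraries on a log axis and its log2 fold change of Smn1OE over Bap1KO. Orange marks the 2524 genes called higher, blue the 2849 called lower and grey the rest, and calls in both directions occur at all levels.

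Bap1KO replicate 2 lay nearer to the Smn1OE libraries than the other Bap1KO libraries did. On the first principal component of the 6 libraries (63.5% of the variance) the Bap1KO replicates stood at -74.2, -23.5 and -53.6 and the Smn1OE replicates at 49.1, 32.8 and 69.4. Among the genes called lower, Bap1KO replicate 2 was the Bap1KO library nearest to Smn1OE for 63.7%, and Smn1OE replicate 3 was the lowest Smn1OE library for 57.9%.

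Extracellular matrix genes had the largest falls in CPM among calls whose groups did not overlap. Fn1, which encodes the adhesion glycoprotein fibronectin, stood at 16805, 10056 and 18949 CPM in Bap1KO and 7784, 6954 and 4655 CPM in Smn1OE (log2 fold change -1.24, SE 0.296, adjusted p = 0.00805). Col1a1 and Col1a2 encode the chains of type I collagen, the main fibre of muscle connective tissue. Col1a1 stood at 10703, 6830.2 and 10791 CPM in Bap1KO and 2656, 4155 and 2733 CPM in Smn1OE (-1.57, SE 0.221, adjusted p = 0.000645), and Col1a2 at 6399, 3242 and 5844 CPM in Bap1KO and 1447, 1762 and 937 CPM in Smn1OE (-1.90, SE 0.303, adjusted p = 0.00113). Col3a1, of the thin fibres of type III collagen, went from 3662, 1090.2 and 2365 CPM to 392, 529 and 327 CPM (-2.51, SE 0.405, adjusted p = 0.00121). In these 4 genes each Smn1OE library lay below each Bap1KO library, and Bap1KO replicate 2 was the lowest of its group.

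Of 30 collagen chain genes tested, 17 fell and 2 rose, with a median log2 fold change of -0.77, against -0.011 over all genes. Col5a1, a chain that sets fibre width, stood at 3148, 2015 and 2938 CPM in Bap1KO and 914, 1211 and 861 CPM in Smn1OE (-1.44, SE 0.208, adjusted p = 0.000714). Col6a1, of the beaded filaments around muscle fibres, fell further, from 882, 295 and 559 CPM to 61.6, 106 and 36.7 CPM (-3.09, SE 0.483, adjusted p = 0.00105). Col14a1, a fibre-associated collagen, fell from 33.3, 3.48 and 21.7 CPM to 0.405, 0.492 and 0.151 CPM (-5.75, adjusted p = 0.00121). The 2 chains that rose were Col7a1, the anchoring fibril chain, and Col20a1. Col7a1 stood at 31.5, 69.1 and 49.1 CPM in Bap1KO and 121, 74.4 and 192 CPM in Smn1OE (1.37, adjusted p = 0.0101). Col20a1 stood at 2.21, 2.5 and 3.25 CPM in Bap1KO and 7.67, 4.4 and 7.93 CPM in Smn1OE (1.33, adjusted p = 0.00156). Members called higher numbered 1 among genes of at least 5 CPM.

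Small leucine-rich proteoglycans coat collagen fibres and set their spacing. Of 10 tested, 6 fell and none rose (median -1.46). Fmod, fibromodulin, stood at 414, 162 and 331 CPM in Bap1KO and 17.9, 26.5 and 14.6 CPM in Smn1OE (-3.94, SE 0.385, adjusted p = 0.000104). Prelp, which ties collagen to basement membranes, stood at 762, 398 and 775 CPM in Bap1KO and 63.1, 86.6 and 25 CPM in Smn1OE (-3.47, SE 0.517, adjusted p = 0.000829), and Podn at 35.4, 6.98 and 17 CPM in Bap1KO and 3.66, 3.68 and 2.67 CPM in Smn1OE (-2.56, adjusted p = 0.00358). Lum, lumican, was called lower (-3.21, adjusted p = 0.033) with most of its reads in Bap1KO replicate 1 (7.63, 0.64 and 0.508 CPM against 0.0749, 0.656 and 0.208 CPM), and it was not called without Bap1KO replicate 1, Smn1OE replicate 1 or Smn1OE replicate 3 (adjusted p up to 0.433). The lower-called members were 3 without Bap1KO replicate 1 or Smn1OE replicate 3 or in a fit of the 6 libraries alone, and those called higher became 1 without Bap1KO replicate 1.

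Matricellular proteins and matrix glycoproteins fell in most cases, with 30 of 47 lower and 2 higher (median -1.0). Ccn5, a secreted CCN-family regulator, stood at 683, 501 and 607 CPM in Bap1KO and 48.9, 55.6 and 31 CPM in Smn1OE (-3.72, SE 0.275, adjusted p = 1.89e-05). Comp, the pentameric thrombospondin of tendon and cartilage, stood at 63.4, 23.2 and 58 CPM in Bap1KO and 4.23, 3.36 and 3.67 CPM in Smn1OE (-3.68, SE 0.409, adjusted p = 0.000189). Pcolce, an enhancer of procollagen cleavage, stood at 854, 686 and 708 CPM in Bap1KO and 356, 366 and 304 CPM in Smn1OE (-1.13, SE 0.12, adjusted p = 0.000158), and Loxl1, a crosslinking oxidase, at 553, 562 and 661 CPM in Bap1KO and 325, 356 and 294 CPM in Smn1OE (-0.86, SE 0.102, adjusted p = 0.000265). Sparc, a collagen-binding glycoprotein, fell by less, from 8125, 6953 and 8398 CPM to 4699.5, 5112 and 5168 CPM (-0.65, adjusted p = 0.00093). Lox, the main crosslinking oxidase, went from 5504, 3511 and 5312 CPM to 2101, 2279 and 1728 CPM (-1.23, adjusted p = 0.00159). In other fits, members called higher came to 0 without Bap1KO replicate 1, Smn1OE replicate 2 or Smn1OE replicate 3 and 1 without Bap1KO replicate 3, Smn1OE replicate 1, Smn1OE_K186R replicate 1, Smn1OE_K186R replicate 2, Smn1OE_K186R replicate 3 or WT replicate 3 or in a fit of the 6 libraries alone.

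The 2 matricellular genes called higher rested on few libraries. Tnc, tenascin C, an early glycoprotein of repairing tissue, stood at 1554, 1886 and 1828 CPM in Bap1KO and 2222, 2878 and 2384 CPM in Smn1OE (0.51, adjusted p = 0.027), and it was not called without Bap1KO replicate 1, Bap1KO replicate 3, Smn1OE replicate 2 or Smn1OE replicate 3 (up to 0.0998). Ltbp1, which holds latent TGF-beta in the matrix, stood at 66.4, 126 and 92.4 CPM in Bap1KO and 139.6, 139.8 and 139 CPM in Smn1OE (0.56, adjusted p = 0.0445), a call lost without Bap1KO replicate 1, Bap1KO replicate 3, Smn1OE replicate 1, Smn1OE replicate 2 or Smn1OE replicate 3 (up to 0.143).

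**Figure D2:**
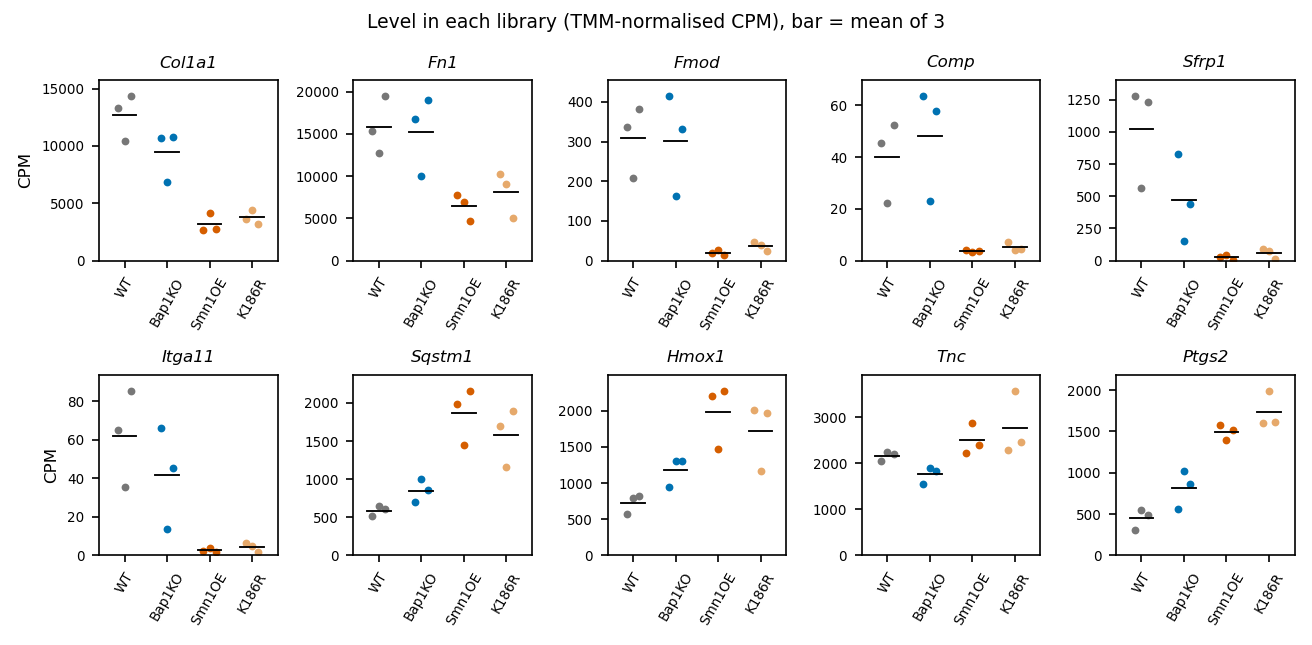
TMM-normalised CPM of 10 genes in each library, with 3 points per group and a bar at their mean, for WT, Bap1KO, Smn1OE and Smn1OE_K186R. Col1a1, Fn1, Fmod, Comp, Sfrp1 and Itga11 lie lower in Smn1OE than in Bap1KO, and Sqstm1, Hmox1, Tnc and Ptgs2 higher, with no overlap between these groups.

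Matrix proteases moved in both directions. Of 40 tested genes 5 rose and 15 fell. Mmp10, stromelysin-2, rose from 1.06, 4.9 and 2.31 CPM to 13.9, 15.8 and 21.8 CPM (2.64, SE 0.465, adjusted p = 0.00183). Mmp13, a collagenase, stood at 2.8, 2.65 and 0.98 CPM in Bap1KO and 7.91, 5.94 and 6.87 CPM in Smn1OE (1.68, adjusted p = 0.01), and Mmp9, a gelatinase, at 0.447, 0.549 and 0.49 CPM in Bap1KO and 1.48, 2.13 and 2.04 CPM in Smn1OE (1.92, adjusted p = 0.00128). Timp3, a matrix-bound inhibitor of these enzymes, fell from 1167, 936 and 1237 CPM to 601, 635 and 579.6 CPM (-0.88, SE 0.137, adjusted p = 0.000997), and Adamtsl4 from 56.7, 49.8 and 61.4 CPM to 18, 15.4 and 13.5 CPM (-1.84, adjusted p = 8.69e-05). Those called higher became 2 among genes of at least 5 CPM and 3 without Bap1KO replicate 1, Bap1KO replicate 3 or Smn1OE replicate 3.

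Basal lamina and integrin genes were divided. Among laminins and other basal lamina genes 2 of 16 rose and 6 fell. Nid1, a nidogen that links laminin to collagen IV, stood at 509, 803 and 781 CPM in Bap1KO and 1213, 1059.7 and 1555 CPM in Smn1OE (0.87, SE 0.189, adjusted p = 0.00508), while its paralogue Nid2 stood at 88.4, 53.1 and 110.0 CPM in Bap1KO and 22.9, 25.9 and 17.2 CPM in Smn1OE (-1.93, SE 0.321, adjusted p = 0.00138). Lamb1 rose (0.52, adjusted p = 0.00603), and Lamb2, the laminin chain concentrated at the neuromuscular synapse, fell from 237, 179.8 and 267 CPM to 122, 118 and 99.5 CPM (-1.01, adjusted p = 0.000769).

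Of 19 integrin genes 5 rose and 5 fell. Itga11, the fibroblast receptor for fibrillar collagen, fell from 66.3, 13.7 and 45.1 CPM to 2.02, 3.98 and 1.53 CPM (-4.04, SE 0.628, adjusted p = 0.000997). Itga6, a laminin receptor chain, rose from 4.59, 14.5 and 8.4 CPM to 30.7, 22.3 and 29.5 CPM (1.58, SE 0.325, adjusted p = 0.00387), and Itgb1, the common beta chain, from 1481, 1896 and 1634 CPM to 2151, 2397 and 2516 CPM (0.50, adjusted p = 0.00897). Among the alternatives, members called lower were 2 without Smn1OE replicate 3 and 3 without Bap1KO replicate 1, Bap1KO replicate 3 or Smn1OE replicate 2, and those called higher became 8 with no filter on low counts.

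FAP identity genes fell in most cases, with 16 of 25 lower and 1 higher (median -0.57). Ly6a differed by -1.38, SE 0.214, adjusted p = 0.000995, Prrx2, a limb mesenchyme homeobox gene, went from 99.8, 85.7 and 102 CPM to 34, 40.5 and 26.9 CPM (-1.50, SE 0.137, adjusted p = 7.9e-05), and Mfap5, a microfibril protein, from 449, 327 and 444 CPM to 195, 161 and 155 CPM (-1.26, adjusted p = 0.000703). Cd34, a surface glycoprotein of progenitors, went against the list, at 25.5, 27 and 18 CPM in Bap1KO and 54.3, 101 and 40.4 CPM in Smn1OE (1.47, adjusted p = 0.00612). Under other settings, those called higher numbered 2 without Bap1KO replicate 1.

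Genes of tendon, cartilage and bone had 7 of 16 lower and 1 higher. Sp7, the osteoblast factor osterix, stood at 2.15, 1.74 and 2.18 CPM in Bap1KO and 0.48, 0.731 and 0.417 CPM in Smn1OE (-1.89, adjusted p = 0.000373). The riser was Sox6, a chondrocyte factor that stayed under 1 CPM in all 6 libraries (2.18, adjusted p = 0.0166, lost without Bap1KO replicate 1, Smn1OE replicate 2 or Smn1OE replicate 3), so the count higher was 0 without Bap1KO replicate 1, Smn1OE replicate 2 or Smn1OE replicate 3 or among genes of at least 5 CPM.

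Adipogenic and lipid storage genes had 11 of 33 lower and 3 higher (median -0.38). Cebpd, an early adipogenic transcription factor, stood at 119.5, 59.4 and 94.9 CPM in Bap1KO and 27.9, 32.9 and 14.4 CPM in Smn1OE (-1.86, SE 0.348, adjusted p = 0.00244). Scd1, the desaturase of fatty acid synthesis, differed by -1.28, SE 0.235, adjusted p = 0.00219 on the log2 scale. Plin2, a lipid droplet coat protein, went the other way, at 134, 235 and 178 CPM in Bap1KO and 572, 399 and 606 CPM in Smn1OE (1.53, SE 0.246, adjusted p = 0.0012). The other 2 risers, Fasn (0.27, adjusted p = 0.0282) and Pnpla2 (0.54, adjusted p = 0.0445), depended on which libraries were kept. Fasn was not called without Bap1KO replicate 1, Bap1KO replicate 3, Smn1OE replicate 2 or Smn1OE replicate 3, nor Pnpla2 without Bap1KO replicate 1, Bap1KO replicate 3, Smn1OE replicate 1, Smn1OE replicate 2 or Smn1OE replicate 3, and members called higher numbered 1 without Bap1KO replicate 1, Bap1KO replicate 3, Smn1OE replicate 2 or Smn1OE replicate 3.

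Contractile genes of activated fibroblasts were mostly not called, with 3 of 23 higher and 0 lower. Actn1, alpha-actinin, stood at 889, 1139 and 1164 CPM in Bap1KO and 1389, 1471 and 1456 CPM in Smn1OE (0.44, adjusted p = 0.0103), and Srf, the factor that drives many of these genes, at 57.1, 59.6 and 61.9 CPM in Bap1KO and 71, 76.8 and 72.9 CPM in Smn1OE (0.31, adjusted p = 0.00389). Myh11, smooth muscle myosin, was called (0.77, adjusted p = 0.0451) but not without Bap1KO replicate 1, Bap1KO replicate 3, Smn1OE replicate 2 or Smn1OE replicate 3 (up to 0.155). Members passing as higher changed to 5 with no scaling factor, and those called lower became 1 without Smn1OE replicate 2.

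Wnt pathway genes fell in larger number than they rose, at 21 and 4 of 41 tested (median -0.67). Wnt ligands act through Frizzled receptors, and secreted antagonists hold them back. Sfrp1, a secreted antagonist, fell from 830.0, 151 and 441 CPM to 29.3, 44.9 and 6.99 CPM (-4.13, SE 0.856, adjusted p = 0.00409), and Dkk3, of the Dickkopf family, from 117, 93.5 and 76.9 CPM to 45.5, 49.8 and 33.4 CPM (-1.16, adjusted p = 0.00157). Nkd2, an intracellular inhibitor, stood at 18.5, 17.2 and 20.9 CPM in Bap1KO and 3.69, 4.09 and 3.39 CPM in Smn1OE (-2.34, SE 0.288, adjusted p = 0.000319). Among receptors, Fzd2 fell (-0.83, adjusted p = 0.00107) and Fzd3 rose (0.58, adjusted p = 0.00599). The ligand Wnt5a rose, from 31.8, 39 and 28.4 CPM to 46.3, 45.8 and 54.4 CPM (0.56, adjusted p = 0.00387). Outside the reported fit, those called higher were 2 without Bap1KO replicate 1, Bap1KO replicate 3 or Smn1OE replicate 3 or among genes of at least 5 CPM, and those called lower became 13 among genes of at least 5 CPM.

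BMP pathway genes had 8 of 27 lower and 4 higher. Grem1, a secreted BMP antagonist, rose from 296, 475 and 358 CPM to 809.6, 719 and 742 CPM (1.01, SE 0.178, adjusted p = 0.00184), and Chrd, another antagonist, fell from 12.1, 6.71 and 10.3 CPM to 3.18, 3.56 and 1.7 CPM (-1.78, SE 0.294, adjusted p = 0.00135). The BMP target genes Id3 (336, 473 and 407 CPM in Bap1KO and 249.7, 259 and 229 CPM in Smn1OE) and Smad6 (51.5, 60.5 and 61.4 CPM in Bap1KO and 39.4, 40.2 and 36.4 CPM in Smn1OE) differed by -0.72 and -0.58 on the log2 scale (adjusted p = 0.00216 and 0.00394). Members called higher numbered 2 among genes of at least 5 CPM, and those called lower became 5 among genes of at least 5 CPM.

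In the TGF-beta and activin list 9 of 30 rose and 4 fell. Skil, a negative regulator of the pathway, stood at 35.1, 36.6 and 36 CPM in Bap1KO and 64.3, 62.6 and 74.9 CPM in Smn1OE (0.91, SE 0.125, adjusted p = 0.000565), and Smurf2, a ubiquitin ligase for its receptors, at 47.3, 66 and 61.5 CPM in Bap1KO and 123, 93.5 and 109.7 CPM in Smn1OE (0.90, SE 0.156, adjusted p = 0.00168). Tgfbi, a secreted adhesion protein, fell from 27.5, 13.6 and 16.9 CPM to 6.79, 8.05 and 7.16 CPM (-1.40, adjusted p = 0.00236). The lower-called members were 2 without Bap1KO replicate 1, Smn1OE replicate 1 or Smn1OE replicate 3 and 7 with no filter on low counts.

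Hes1, a transcription repressor best known as a Notch target, had a lower adjusted p than any other list member named here except Smn1. It stood at 103, 137 and 113 CPM in Bap1KO and 34.5, 37.6 and 36.5 CPM in Smn1OE (-1.70, SE 0.102, adjusted p = 3.98e-06), with a narrow spread in both groups. The ligand genes Jag2 and Jag1 were higher: Jag2 at 0.104, 0.442 and 0.363 CPM in Bap1KO and 2.29, 1.34 and 1.87 CPM in Smn1OE (2.6, adjusted p = 0.00283), and Jag1 by 1.37 (adjusted p = 0.0248, lost without Bap1KO replicate 1, Bap1KO replicate 3 or Smn1OE replicate 3). In the Notch list as a whole 4 of 15 rose and 3 fell. In the Hedgehog list 4 of 13 fell and 0 rose, a called share of 30.8%, which is below the 33.5% of all genes. Among them were the receptors Boc (-0.74, adjusted p = 0.000621) and Gas1 (-3.02, adjusted p = 0.00819) and the target Gli1, which was under 2 CPM. The count called lower in the Hedgehog list was 7 without Bap1KO replicate 2.

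Genes of the insulin-like growth factor system had 7 of 19 lower and 4 higher. The binding protein gene Igfbp4 fell from 737, 496 and 657 CPM to 156, 148 and 122 CPM (-2.15, SE 0.182, adjusted p = 5.13e-05), and Igfbp6 from 346, 313 and 407 CPM to 161, 127 and 139 CPM (-1.32, SE 0.192, adjusted p = 0.000721). Irs2, an adaptor of the insulin receptor, rose from 5.11, 4.53 and 5.45 CPM to 8.92, 9.08 and 8.46 CPM (0.81, adjusted p = 0.00241). In other fits, members called higher came to 2 without Smn1OE replicate 3.

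Among other growth factors and receptors 9 of 40 rose and 7 fell, a called share of 40%, near the 33.5% of all genes. Kitl, the stem cell factor, stood at 21.3, 22.2 and 23.9 CPM in Bap1KO and 109, 64.9 and 56.5 CPM in Smn1OE (1.77, SE 0.247, adjusted p = 0.000614). Areg, an EGF receptor ligand that promotes muscle repair, stood at 0.417, 1.22 and 0.563 CPM in Bap1KO and 3.82, 3.24 and 3.69 CPM in Smn1OE (2.28, SE 0.365, adjusted p = 0.00117). Gas6, a ligand of TAM receptors, fell from 1199.6, 514 and 820.4 CPM to 226, 281 and 209 CPM (-1.82, SE 0.26, adjusted p = 0.000676), and Pdgfrb from 361, 359 and 409.8 CPM to 189, 199.9 and 194 CPM (-0.95, adjusted p = 0.000129). Those called higher became 14 without Bap1KO replicate 2, and those called lower became 4 without Bap1KO replicate 1 or among genes of at least 5 CPM and 11 with no filter on low counts or by limma voom with a random term for media batch.

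FAP-derived ligands for motor neurons and synapses did not move as a block. Of 36 tested, 3 rose and 10 fell (median -0.39). Agrn, agrin, which clusters acetylcholine receptors, stood at 52, 25.2 and 34.3 CPM in Bap1KO and 21.2, 20.2 and 19 CPM in Smn1OE (-0.88, SE 0.199, adjusted p = 0.00611). Nrg1, neuregulin, stood at 2.5, 2.36 and 1.81 CPM in Bap1KO and 5.59, 4.07 and 5.05 CPM in Smn1OE (1.14, SE 0.2, adjusted p = 0.0018). Bdnf stood at 27.9, 71.9 and 42.7 CPM in Bap1KO and 96.6, 85.6 and 122 CPM in Smn1OE (1.09, adjusted p = 0.0213), and Nptx1, a neuronal pentraxin, at 17.2, 44 and 18.9 CPM in Bap1KO and 58.1, 56.7 and 78.1 CPM in Smn1OE (1.27, adjusted p = 0.0142). In both genes Bap1KO replicate 2 was the highest of its group, and neither was called without Bap1KO replicate 1, Bap1KO replicate 3 or Smn1OE replicate 3. Among the alternatives, members called higher were 1 without Bap1KO replicate 1, Bap1KO replicate 3 or Smn1OE replicate 3, 5 without Smn1OE replicate 2 and 6 without Bap1KO replicate 2 or by DESeq2 or with no filter on low counts.

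Axon guidance genes rose in 15 and fell in 10 of 58 cases. Nrp2, a semaphorin co-receptor, stood at 46.2, 43.7 and 38.1 CPM in Bap1KO and 87.3, 87.4 and 112 CPM in Smn1OE (1.16, SE 0.12, adjusted p = 0.000131). The secreted semaphorins Sema3e and Sema3f went opposite ways, with Sema3e at 1.45, 4.64 and 2.9 CPM in Bap1KO and 13.8, 10.4 and 13.8 CPM in Smn1OE (2.08, SE 0.322, adjusted p = 0.000973) and Sema3f at 17.1, 10.5 and 14.7 CPM in Bap1KO and 2.85, 3.34 and 2.46 CPM in Smn1OE (-2.29, SE 0.252, adjusted p = 0.000182). Dpysl3, a mediator of semaphorin signals in growth cones, rose from 37.5, 83.1 and 42.7 CPM to 164, 178 and 239.8 CPM (1.83, adjusted p = 0.00113). The semaphorin receptor Plxnc1 fell from 6.08, 3.52 and 4.88 CPM to 0.719, 1.16 and 0.227 CPM (-2.76, adjusted p = 0.00134). Under other settings, those called lower numbered 5 among genes of at least 5 CPM.

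The series title names granzyme E, and the list of granzymes and their Serpinb9-family inhibitors had 10 of 15 higher and 3 lower. Gzme, at 69.2, 52.8 and 61.3 CPM in Bap1KO and 44.8, 46.6 and 10.5 CPM in Smn1OE, was not called (-0.84, SE 0.506, adjusted p = 0.218). Gzmc fell from 5.44, 2.5 and 4.68 CPM to 0.405, 0.761 and 0.189 CPM (-3.19, adjusted p = 0.00219). The Gzmc result held under each omission. Gzmd (-1.79, adjusted p = 0.0285) and Srgn (-1.29, adjusted p = 0.0244) were the other fallers. Both depended on which libraries were kept, with adjusted p up to 0.0958 and 0.0889. The risers were mostly serpins: Serpinb9, the granzyme B inhibitor, stood at 10.3, 7.73 and 9.09 CPM in Bap1KO and 16.1, 14.7 and 15.8 CPM in Smn1OE (0.78, SE 0.131, adjusted p = 0.00144), and Serpinb9c, close to 0 in Bap1KO, at 1.3, 0.82 and 1.63 CPM in Smn1OE. Serpinb9g averaged 0.199 CPM in Bap1KO and 5.91 CPM in Smn1OE. Serpinb9c and Serpinb9g passed the count filter through the groups with SMN, so a call could only be higher. Summed over the list, the Bap1KO libraries held 872, 999 and 984 CPM and the Smn1OE libraries 886, 888 and 943 CPM. The groups thus overlapped in this sum. The serpin genes resemble each other closely, as do the granzymes Gzmc, Gzmd and Gzme, so the assignment of reads among them is uncertain. Members passing as higher changed to 2 among genes of at least 5 CPM, and those called lower became 1 without Bap1KO replicate 3 or Smn1OE replicate 3 or among genes of at least 5 CPM.

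Interferon-stimulated genes were lower in Smn1OE, but how many were called depended on single libraries. Of 76 tested members 56 fell and none rose, with a median log2 fold change of -2.15. Summed over the list, the Bap1KO libraries held 2583, 894 and 1295 CPM and the Smn1OE libraries 647, 720.2 and 493 CPM. WT libraries held 1618, 1343 and 1682 CPM, so Bap1KO replicate 1 lay above every WT library and replicates 2 and 3 below every one. Outside the reported fit, those called lower were 24 by limma voom with a random term for media batch, 25 among genes of at least 5 CPM, 27 without Bap1KO replicate 1, 32 without Smn1OE replicate 3 and 36 without Smn1OE replicate 1, and those called higher became 3 without Bap1KO replicate 1.

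Ifitm3, which blocks virus entry, stood at 516, 231 and 311 CPM in Bap1KO and 117, 126 and 72.4 CPM in Smn1OE (-1.75, SE 0.291, adjusted p = 0.00137). Lgals9, galectin 9, stood at 105, 67.3 and 82.5 CPM in Bap1KO and 54.2, 48.8 and 46.2 CPM in Smn1OE (-0.77, SE 0.133, adjusted p = 0.0016), and Irf1, a transcription factor of the response, at 13.9, 6.59 and 8.78 CPM in Bap1KO and 3.12, 4.34 and 1.86 CPM in Smn1OE (-1.65, SE 0.327, adjusted p = 0.00328). These calls held when any of the 6 libraries was left out, as did those of 27 list members in all. In a separate list of interferon sensing and receptor genes, 4 of 22 fell and 0 rose (median -0.23). That share, 18.2%, is below the 33.5% of all genes.

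The interferon-stimulated response element (ISRE), a motif of interferon-responsive promoters, was searched as its core letters, GAAA followed by any 2 bases and GAAA again, on either strand in RefSeq promoter windows (GRCm38.p6) from 250 bases before to 50 after the start. Of 61 tested list members with a window, 34 held the letters (55.7%), against 3.62% of 11229 tested autosomal genes with a window. The letters were in 24 of 44 members called lower (54.5%) and 10 of 17 not called lower (58.8%). A match describes the letters alone. From list members called lower that hold the letters upstream of the start, 6 were taken in order of adjusted p, not from all chromosomes. Their stretches are given below, and capitals mark the match. Read 5′ to 3′ on the strand of the gene, they lie at chr11:78984935-78985014 (minus strand) for Lgals9, chr5:120907526-120907605 (minus strand) for Oas1a, chr10:128270248-128270327 (plus strand) for Stat2, chr3:142530248-142530327 (plus strand) for Gbp7, chr11:58214878-58214957 (plus strand) for Irgm2 and chr11:58199476-58199555 (plus strand) for Igtp.
Lgals9: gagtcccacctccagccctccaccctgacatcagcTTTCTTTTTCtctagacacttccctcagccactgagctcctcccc
Oas1a: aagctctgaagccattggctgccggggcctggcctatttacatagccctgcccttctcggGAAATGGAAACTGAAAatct
Stat2: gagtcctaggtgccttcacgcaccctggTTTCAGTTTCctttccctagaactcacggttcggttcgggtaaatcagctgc
Gbp7: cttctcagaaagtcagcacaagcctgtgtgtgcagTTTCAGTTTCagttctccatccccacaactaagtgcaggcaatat
Irgm2: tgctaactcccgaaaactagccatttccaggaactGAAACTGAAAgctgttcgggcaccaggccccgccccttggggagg
Igtp: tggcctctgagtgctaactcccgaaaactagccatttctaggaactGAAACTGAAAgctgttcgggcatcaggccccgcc

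**Figure D3:**
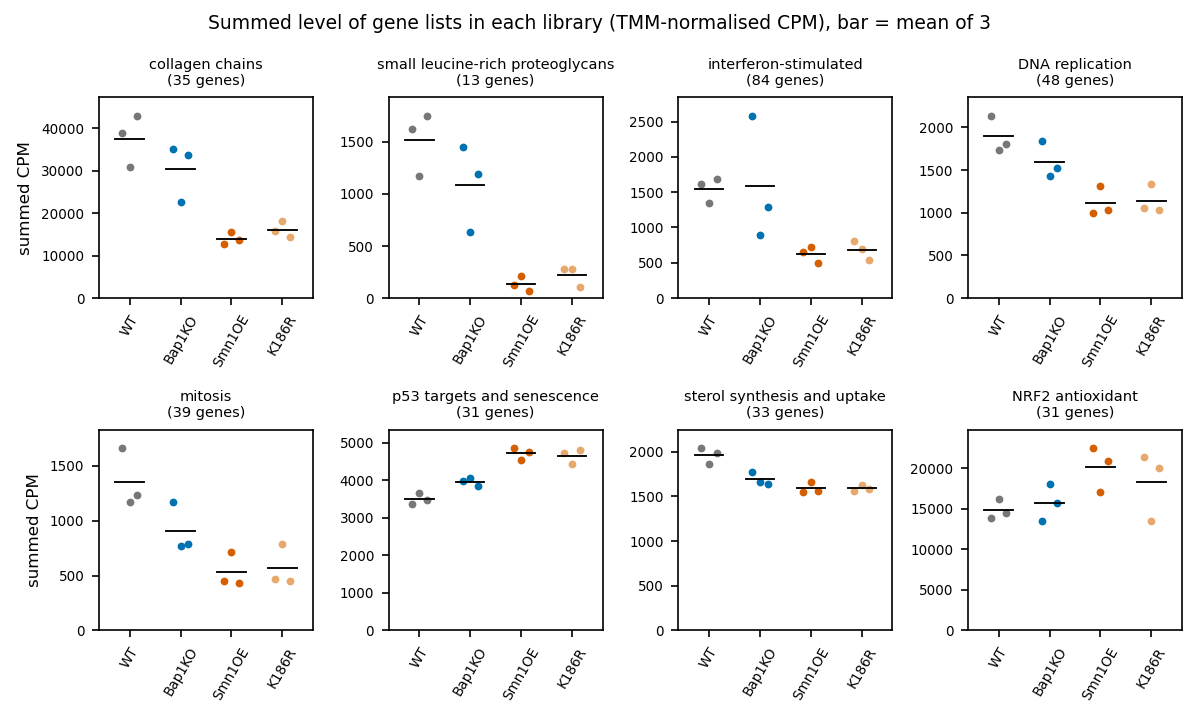
Summed TMM-normalised CPM of 8 gene lists in each library, with 3 points per group and a bar at their mean. Among the groups, interferon-stimulated genes spread most in Bap1KO, where replicate 1 stands above the other libraries, and the collagen and proteoglycan sums of Smn1OE lie below those of every Bap1KO library.

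Antigen presentation and complement genes were called lower more often than higher. In the MHC class I list 12 of 23 fell and none rose, or 1 with no scaling factor. H2-T23, a non-classical class I gene, stood at 43.2, 23.2 and 38.4 CPM in Bap1KO and 10.8, 11.1 and 6.49 CPM in Smn1OE (-1.88, SE 0.317, adjusted p = 0.00143), and Tap2, of the peptide transporter, at 39.5, 30.8 and 33.7 CPM in Bap1KO and 24.9, 22.7 and 21.1 CPM in Smn1OE (-0.60, SE 0.112, adjusted p = 0.00248). Class I genes are near copies of each other, so the assignment of reads to H2-T23 is uncertain. Of 18 complement genes 7 fell and 1 rose; C1ra, a protease of the classical pathway, stood at 26.2, 9.79 and 16.7 CPM in Bap1KO and 4.24, 5.12 and 1.63 CPM in Smn1OE (-2.25, adjusted p = 0.00415). The riser was C3ar1, the receptor of the C3a fragment, at 0.0596, 0.488 and 0.181 CPM in Bap1KO and 1.09, 0.984 and 1.42 CPM in Smn1OE (2.25, adjusted p = 0.0322), and it was not called without Bap1KO replicate 1, Bap1KO replicate 3, Smn1OE replicate 1 or Smn1OE replicate 3 (up to 0.0991). Members called lower numbered 4 without Bap1KO replicate 1 or Smn1OE replicate 3, and those called higher became 0 without Bap1KO replicate 1, Bap1KO replicate 3, Smn1OE replicate 1 or Smn1OE replicate 3 or among genes of at least 5 CPM and 2 without Bap1KO replicate 2.

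Chemokines and cytokines had 17 of 43 lower and 5 higher (median -0.68). Il6, a cytokine FAPs release on injury, stood at 20.3, 12.9 and 20.7 CPM in Bap1KO and 3.37, 3.7 and 2.16 CPM in Smn1OE (-2.54, SE 0.3, adjusted p = 0.00027), and Cxcl1, a chemokine that draws neutrophils, at 53.9, 34.4 and 45.4 CPM in Bap1KO and 6.37, 5.35 and 2.01 CPM in Smn1OE (-3.27, SE 0.471, adjusted p = 0.000704). Cxcl14 fell from 402, 129 and 379 CPM to 35.1, 32 and 11.5 CPM (-3.53, adjusted p = 0.0016). Ptgs2, the inducible enzyme of prostaglandin synthesis, rose from 563, 1015 and 861 CPM to 1572, 1396 and 1512 CPM (0.88, SE 0.222, adjusted p = 0.0108), and Tnfaip3, an inhibitor of NF-kB, from 2.47, 3.35 and 3.09 CPM to 11.9, 7.41 and 6.68 CPM (1.55, adjusted p = 0.00152). The higher-called members were 3 without Smn1OE replicate 1 or Smn1OE replicate 2.

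DNA replication genes were lower, with 25 of 48 called lower and none higher (median -0.61). Rrm2, a subunit of ribonucleotide reductase, differed by -0.60, SE 0.0839, adjusted p = 0.000645 on the log2 scale, and Rfc2, of the clamp loader, stood at 48, 45.1 and 44.3 CPM in Bap1KO and 31.2, 35.6 and 30.7 CPM in Smn1OE (-0.50, SE 0.0876, adjusted p = 0.00185). In other fits, members called lower came to 10 without Bap1KO replicate 1 and 11 without Smn1OE replicate 1 or Smn1OE replicate 3, and those called higher became 1 without Bap1KO replicate 1 or with no scaling factor or by DESeq2 or among genes of at least 5 CPM.

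Mitosis genes had 21 of 39 lower and none higher (median -0.81), yet few calls held without certain libraries: the count was 2 without Bap1KO replicate 1 or Smn1OE replicate 3, 3 without Smn1OE replicate 1 and 35 with no filter on low counts. Ube2c, which directs cyclin degradation, stood at 42, 31.7 and 25.1 CPM in Bap1KO and 13.2, 22.7 and 14.2 CPM in Smn1OE (-0.98, SE 0.242, adjusted p = 0.00964), and its call held under each omission. Aurkb, the Aurora B kinase, stood at 17.6, 8.17 and 9.78 CPM in Bap1KO and 3.9, 6.86 and 3.45 CPM in Smn1OE (-1.32, adjusted p = 0.0113), a call lost without Bap1KO replicate 1 (0.0512). Smn1OE replicate 2 was the highest Smn1OE library in both genes and in the list's sum. The cell cycle homology region, searched as TTTGAA on either strand, was in 24 of 32 tested mitosis genes with a promoter window, 13 of 18 called lower (72.2%) and 11 of 14 not called lower (78.6%), against 14.5% of tested genes.

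Among p53 targets and senescence genes 13 of 31 rose and 5 fell (median 0.15). Cdkn1a, at a mean of 922 CPM in Bap1KO and 1024 CPM in Smn1OE, was not called (0.15, adjusted p = 0.216). Mdm2, the ubiquitin ligase that limits p53, stood at 204, 272 and 240.1 CPM in Bap1KO and 566, 448 and 524 CPM in Smn1OE (1.10, SE 0.127, adjusted p = 0.000227). Pmaip1, the cell death factor Noxa, stood at 12.5, 21.2 and 13.4 CPM in Bap1KO and 71.3, 58 and 62.8 CPM in Smn1OE (2.03, SE 0.207, adjusted p = 0.000129), and Trp53inp1 at 62.6, 50.4 and 54.3 CPM in Bap1KO and 109.8, 91.7 and 93.1 CPM in Smn1OE (0.82, adjusted p = 0.000377). Btg2, an antiproliferative target, fell from 151, 88.9 and 127 CPM to 62.5, 70.1 and 54.2 CPM (-0.97, SE 0.168, adjusted p = 0.00167). Cdkn1c, the cell cycle inhibitor p57, was among the largest rises, from 3.17, 7.43 and 3.3 CPM to 19.7, 19.6 and 34.4 CPM (2.40, adjusted p = 0.00178). Those called lower became 3 without Bap1KO replicate 1 or Smn1OE replicate 3.

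NRF2 target genes, which defend against oxidants, rose in 10 and fell in 2 of 31 cases. The share called, 38.7%, is close to the 33.5% of all genes. Summed over the list, the Bap1KO libraries held 13503, 18094 and 15735 CPM and the Smn1OE libraries 22541, 17069 and 20886 CPM. The groups thus overlapped in this sum. Slc7a11, the cystine importer for glutathione synthesis, stood at 6.87, 10.2 and 10.9 CPM in Bap1KO and 65.6, 29.5 and 49.1 CPM in Smn1OE (2.37, SE 0.281, adjusted p = 0.000274). Txnrd1, thioredoxin reductase, stood at 225, 394 and 347 CPM in Bap1KO and 799, 570.4 and 693 CPM in Smn1OE (1.09, SE 0.197, adjusted p = 0.00199), and Gclc, of glutathione synthesis, at 45.2, 72.1 and 65.6 CPM in Bap1KO and 175, 92.1 and 124 CPM in Smn1OE (1.10, SE 0.232, adjusted p = 0.00453). Gstm2, a glutathione transferase, fell from 173, 130.4 and 140.1 CPM to 77.2, 82.6 and 63.6 CPM (-0.99, adjusted p = 0.0004). Among the alternatives, members called higher were 6 without Bap1KO replicate 1 or Bap1KO replicate 3, and those called lower became 1 without Bap1KO replicate 1, Bap1KO replicate 3, Smn1OE replicate 1, Smn1OE replicate 2, Smn1OE replicate 3, WT replicate 2 or WT replicate 3 or with DESeq2 size factors or with no scaling factor or with no filter on low counts or among genes of at least 5 CPM or in a fit of the 6 libraries alone.

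Sqstm1 and Hmox1 rose by more CPM than any other called gene with groups that did not overlap, apart from Smn1. Sqstm1, the autophagy receptor p62, stood at 694, 996 and 855 CPM in Bap1KO and 1989, 1445 and 2155 CPM in Smn1OE (1.14, SE 0.199, adjusted p = 0.00178). Hmox1, heme oxygenase, stood at 948, 1306 and 1303 CPM in Bap1KO and 2209, 1467 and 2271 CPM in Smn1OE (0.74, adjusted p = 0.0286), and it was not called without Bap1KO replicate 1, Bap1KO replicate 3, Smn1OE replicate 1 or Smn1OE replicate 3 (up to 0.112).

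Of 39 ER stress and integrated stress genes tested, 8 rose and 12 fell. Atf3, a stress-induced transcription factor, stood at 5.27, 5.02 and 6.03 CPM in Bap1KO and 11.6, 9.2 and 11.3 CPM in Smn1OE (0.98, SE 0.188, adjusted p = 0.00286). Dnajb9, a chaperone cofactor of the endoplasmic reticulum, also rose, from 24.3, 26 and 26.2 CPM to 35, 32.2 and 38.7 CPM (0.47, adjusted p = 0.00703). Calr, the chaperone calreticulin, was lower, at 2015, 1910.2 and 1926 CPM in Bap1KO and 1263, 1386 and 1341 CPM in Smn1OE (-0.55, SE 0.0775, adjusted p = 0.000645), as was Pdia6, a disulfide isomerase, at 594, 527 and 567 CPM in Bap1KO and 347, 424 and 368 CPM in Smn1OE (-0.57, SE 0.0825, adjusted p = 0.000745). Nupr1, a stress-induced nuclear protein, fell from 75.1, 70.2 and 69.6 CPM to 39.9, 47.4 and 47.9 CPM (-0.67, adjusted p = 0.00219). Under other settings, those called higher numbered 3 without Smn1OE replicate 1, 4 without Bap1KO replicate 1 and 5 without Bap1KO replicate 3, and those called lower became 4 without Smn1OE replicate 1 and 7 without Bap1KO replicate 1.

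Metabolic lists were mostly lower where called. Sterol synthesis and uptake had 15 of 33 lower and 2 higher. Mvk, mevalonate kinase, stood at 29.3, 27.6 and 25.9 CPM in Bap1KO and 16.2, 18.6 and 17.3 CPM in Smn1OE (-0.67, SE 0.094, adjusted p = 0.000646), and Lpin1, a phosphatidate phosphatase, rose from 10.3, 7.18 and 9.42 CPM to 21.1, 16.8 and 15.7 CPM (0.99, adjusted p = 0.000975). Members passing as lower changed to 6 without Smn1OE replicate 3, 7 without Bap1KO replicate 1 or Smn1OE replicate 1 and 8 with no scaling factor, and those called higher became 1 without Bap1KO replicate 1, Smn1OE replicate 1 or Smn1OE replicate 3. Glycolysis and hypoxia genes had 18 of 37 lower and 1 higher, or 0 without Bap1KO replicate 1, Bap1KO replicate 3, Smn1OE replicate 1, Smn1OE replicate 3 or WT replicate 3 or in a fit of the 6 libraries alone and 2 without Bap1KO replicate 2. P4ha1 and Plod1, both enzymes that hydroxylate collagen, led that list: P4ha1 fell from 419.5, 379 and 406 CPM to 234, 267 and 212 CPM (-0.76, SE 0.0932, adjusted p = 0.000319) and Plod1 differed by -1.26, SE 0.157, adjusted p = 0.00033.

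Immediate early and ERK feedback genes were divided, with 10 of 30 higher and 7 lower. Among the risers were the ERK phosphatases Dusp6, at 14.9, 15.4 and 13.6 CPM in Bap1KO and 29.1, 30 and 24.4 CPM in Smn1OE (0.93, SE 0.115, adjusted p = 0.00033), and Dusp5, at 13.7, 30.7 and 19.3 CPM in Bap1KO and 69.3, 68.2 and 90.5 CPM in Smn1OE (1.84, SE 0.239, adjusted p = 0.000401). Spry4, an inhibitor of receptor tyrosine kinase signalling, differed by 1.11 (adjusted p = 0.000661). Nr4a1, an orphan nuclear receptor, stood at 185, 135 and 196 CPM in Bap1KO and 75.5, 73 and 51.2 CPM in Smn1OE (-1.37, SE 0.223, adjusted p = 0.00124), and Junb, an AP-1 subunit, differed by -0.77 on the log2 scale (adjusted p = 0.00347).

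Partners of SMN in snRNP assembly were mostly not called. Of 36 tested genes, Smn1 included, 8 rose and none fell, with a median of 0.052; the share called is below the 33.5% of all genes. Rnpc3, a protein of the minor spliceosome, stood at 11.8, 13.5 and 11.5 CPM in Bap1KO and 24.9, 23.2 and 26.5 CPM in Smn1OE (1.02, SE 0.0982, adjusted p = 9.7e-05). Snrnp200, a helicase of the U5 particle, stood at 105, 95 and 115 CPM in Bap1KO and 151, 146 and 142 CPM in Smn1OE (0.48, SE 0.0894, adjusted p = 0.00243), and Snrnp48, of the minor spliceosome, at 30.5, 26.9 and 28 CPM in Bap1KO and 37.5, 35.7 and 39.4 CPM in Smn1OE (0.40, adjusted p = 0.0041). Outside the reported fit, those called lower were 1 without Bap1KO replicate 2 or Smn1OE_K186R replicate 2 or by DESeq2 or in a fit of the 6 libraries alone.

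Genes of BAP1 and Polycomb complexes had 8 of 40 higher and 2 lower. The share called in either direction, 25%, is below the 33.5% of all genes. Mbd6, of the BAP1 complex, stood at 39.2, 34.5 and 39.5 CPM in Bap1KO and 85, 50.5 and 74.9 CPM in Smn1OE (0.89, SE 0.149, adjusted p = 0.00138). Ring1, of Polycomb complex 1, fell from 27.1, 22.7 and 26.5 CPM to 19.3, 17.5 and 16.8 CPM (-0.51, SE 0.101, adjusted p = 0.00325). Members called higher numbered 4 without Smn1OE replicate 1 or Smn1OE replicate 3 and 5 without Bap1KO replicate 1, Bap1KO replicate 2 or Smn1OE replicate 2, and those called lower became 5 without Bap1KO replicate 2.

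Limb position genes, mostly Hox genes, had 3 of 51 higher and 8 lower. Their called share, 21.6%, is likewise below the 33.5% of all genes. Tbx5, the forelimb factor, stood at 8.27, 5.15 and 7.01 CPM in Bap1KO and 3.3, 2.43 and 2.14 CPM in Smn1OE (-1.37, SE 0.24, adjusted p = 0.00176), and Hoxa13, a gene of the distal limb, at 2.09, 2.09 and 1.65 CPM in Bap1KO and 0.899, 0.388 and 0.606 CPM in Smn1OE (-1.62, adjusted p = 0.00634). Tbx3 stood at 18.5, 22.2 and 20.4 CPM in Bap1KO and 25.1, 33.7 and 29.3 CPM in Smn1OE (0.53, adjusted p = 0.012). Forelimb and hindlimb muscles were pooled per the growth protocol, and the share from each limb is not given. The higher-called members were 1 without Bap1KO replicate 1 or Smn1OE replicate 3, 5 among genes of at least 5 CPM, 6 by limma voom with a random term for media batch, 8 with no scaling factor and 10 by DESeq2, and those called lower became 3 without Smn1OE replicate 3, 4 without Bap1KO replicate 1 and 5 among genes of at least 5 CPM.

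**Figure D4:**
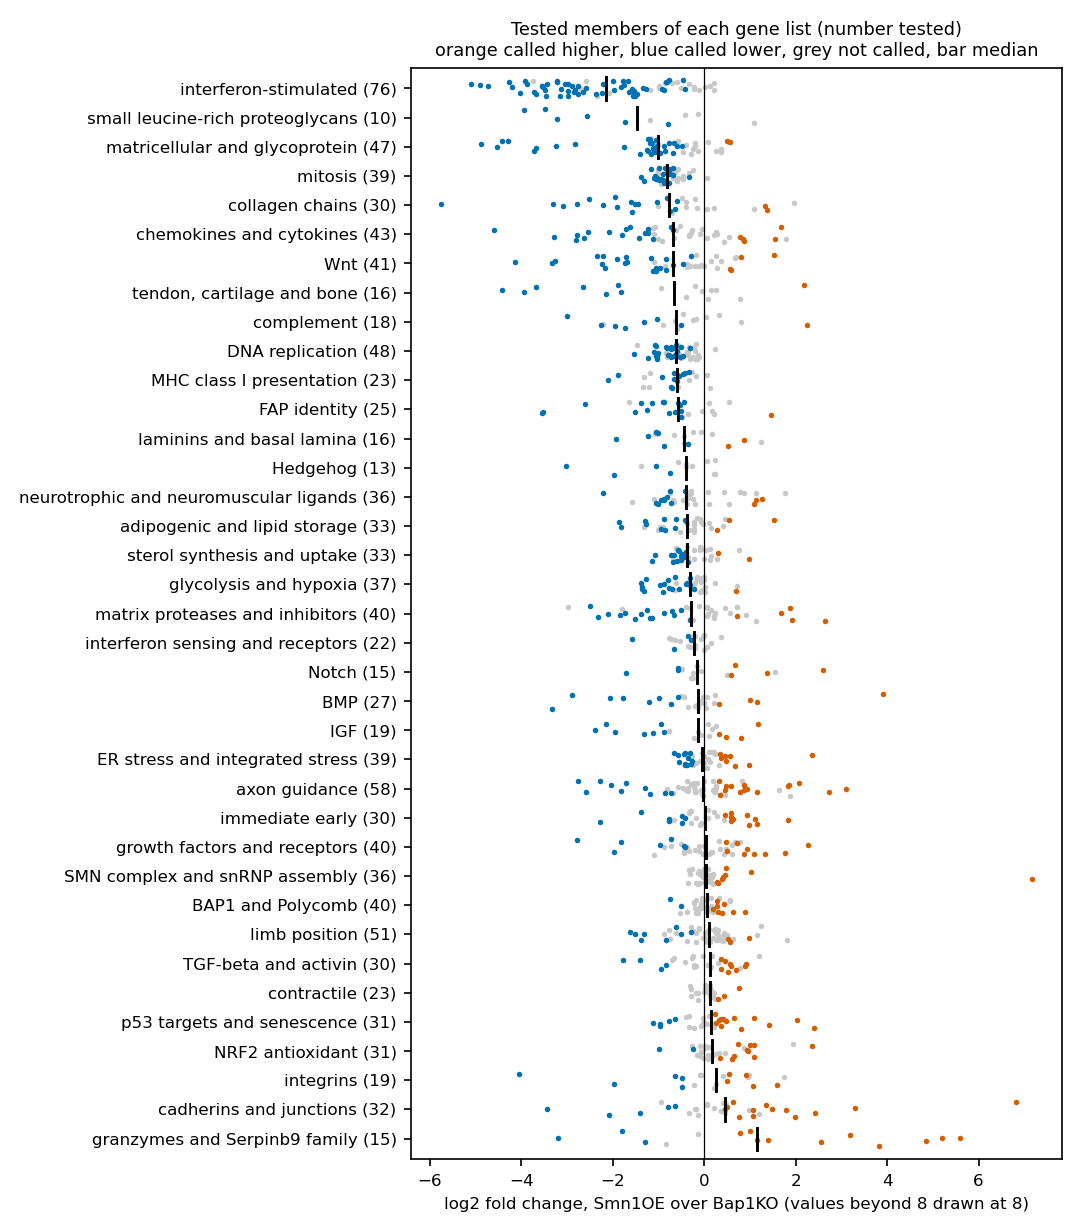
Log2 fold changes of Smn1OE over Bap1KO for the tested members of 37 gene lists, sorted by their median (bar), with the number tested in parentheses. Orange points were called higher, blue called lower and grey not called; the interferon-stimulated list has the lowest median (-2.15) and the granzyme and Serpinb9 list the highest (1.16).

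Marker lists of other cell types were read as sums and as the number of markers with a mean over 1 CPM in either group. Their called members are given after the sums. For immune cells and endothelium the sums were low. The macrophage list (4 of 20 markers) summed to 30.4, 31 and 37.7 CPM in Bap1KO and 30.3, 24.5 and 23.6 CPM in Smn1OE, and the T and NK list (1 of 17) to 3.4, 2.91 and 2.89 CPM in Bap1KO and 2.8, 3.8 and 2.95 CPM in Smn1OE. The endothelial list (6 of 18) summed to 20.1, 14.3 and 15.8 CPM in Bap1KO and 14.6, 16.3 and 18.3 CPM in Smn1OE. Other lists held more reads. The myogenic list (6 of 24) summed to 159, 360.3 and 322 CPM in Bap1KO and 365, 512 and 662 CPM in Smn1OE, nearly all of it Acta1 (mean 262 and 469 CPM), which activated fibroblasts can also express. The pericyte and smooth muscle list (9 of 12) summed to 562, 656 and 639 CPM in Bap1KO and 461, 612 and 638 CPM in Smn1OE, with Pdgfrb at means of 376 and 194 CPM and Myh11 at 116 and 198 CPM, while Rgs5 averaged 0.742 and 2.35 CPM and Higd1b had no read. The Schwann and neural list (9 of 18) summed to 415, 416 and 442 CPM in Bap1KO and 338, 343 and 294 CPM in Smn1OE, each Smn1OE library below each Bap1KO library. Pmp22 led it (mean 231 and 154 CPM), and Sox10, the Schwann cell factor, averaged 0.102 and 0.0478 CPM. The epithelial list (5 of 16) summed to 54.5, 109 and 90.3 CPM in Bap1KO and 114, 79.2 and 77.9 CPM in Smn1OE, most of it Krt19 (mean 67.4 and 72.4 CPM), with Epcam at 0.104 and 0.167 CPM. By called members, the endothelial list had 3 higher and 2 lower of 11 tested, and the epithelial list 4 and 1 of 10. The macrophage list had 2 and 2 of 8, and the pericyte and smooth muscle list 3 and 2 of 11. The myogenic list had 1 and 0 of 11, the T and NK list 0 and 0 of 4, and the Schwann and neural list 2 and 2 of 12. The endothelial (45.5%), epithelial (50%), macrophage (50%) and pericyte (45.5%) shares lie above the 33.5% of all genes, on few members. The part of other cell types in the results was not tested. Megf10, a satellite cell receptor, was called higher (9.46, 15.3 and 8.06 CPM in Bap1KO and 22.8, 31.1 and 59.5 CPM in Smn1OE, 1.79, adjusted p = 0.00579). Ptprc, CD45, stood at 0, 0.0152 and 0 CPM in Bap1KO and 0.3, 0.194 and 0.322 CPM in Smn1OE. Csf1r, a macrophage receptor also read here at low level, stood at 15.3, 13.8 and 21.5 CPM in Bap1KO and 8.92, 7.58 and 4.52 CPM in Smn1OE (-1.27, adjusted p = 0.00758).

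The comparisons with WT and with Smn1OE_K186R share libraries with this one, so levels are given side by side. The genes below were chosen for a known difference between Bap1KO and WT, so their means are a description with no test. In WT, Bap1KO and Smn1OE, Tmem176a, a membrane protein of immune and stromal cells, averaged 64.3, 10.6 and 12.4 CPM and Sema3c 116, 48.8 and 56.7 CPM. Tcf7l2, an effector of Wnt signals, averaged 24.7, 37.4 and 25.1 CPM in the same order, and Pcolce2 13.5, 27.9 and 17.4 CPM. Rragd, a GTPase of the nutrient-sensing pathway, averaged 1.59, 5.34 and 23.8 CPM. Pdgfra averaged 90.9, 33.8 and 18 CPM, and Pmvk, of sterol synthesis, 15.5, 8 and 4.97 CPM.

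Smn1OE_K186R libraries came from the same media batches as Smn1OE. Col1a1 averaged 3763 CPM there and 3181 CPM in Smn1OE, against 9441 CPM in Bap1KO and 12679 CPM in WT. Hes1 averaged 35.3, 36.2, 118 and 126 CPM in the same order, and Mdm2 510.3, 513, 239 and 195 CPM. Other large falls were less deep in Smn1OE_K186R by their means, with Fmod at 36.6, 19.7, 302 and 309 CPM, Prelp at 119.7, 58.3, 645 and 852 CPM, Ccn5 at 77.1, 45.2, 597 and 644 CPM and Sfrp1 at 56.5, 27.1, 474 and 1025 CPM. The difference between both SMN forms was not tested here. Against Bap1KO, Smn1OE_K186R differed by -1.33 in Col1a1 (adjusted p = 0.00154), -1.74 in Hes1 (adjusted p = 3.13e-06) and 1.09 in Mdm2 (adjusted p = 0.0003).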

How the data were processed

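RNA was measured in 12 libraries, 3 per group, of which 6 are compared. The authors deposited raw read counts per Ensembl gene ID with no normalization. Per the submitters' processing notes, the tools were HTSeq 0.9.1, STAR 2.6.1, cutadapt 1.4.2, CASAVA 1.8.2 and DESeq2, with GRCm39 as build, and the annotation release and strand setting are not given in the sources used here, so overlapping and antisense genes are uncertain. The 5 closing rows that name no gene (11.1 to 14.6% of records in the 6 libraries) were left out. Symbols and chromosomes came from GENCODE M21 (55154 of 55335 IDs matched).

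The test was that of edgeR 4.0.16 (R 4.3.3), with TMM scaling, filterByExpr with a minimum count of 10 (16597 genes), and a quasi-likelihood fit of 4 groups over all 12 libraries (8 residual degrees of freedom). P-values are 2-sided, Benjamini-Hochberg adjusted over all genes tested and called under 0.05. The SE of a log2 fold change is its size divided by the square root of the F statistic, and fold changes carry a prior count of 0.125. Levels are TMM-normalised CPM in replicates 1 to 3. The fit was tested on simulated counts with known changes in Smn1OE. It called in the right direction 16 of 67 genes changed by 0.5 on the log2 scale (23.9%). At 1 it called 49 of 67 (73.1%) and at 2 it called 64 of 66 (97%), with 9 false calls. Changes as small as 0.5 were thus mostly missed. Alternatives were DESeq2 1.42.0, limma 3.58.1 voom with a random term for media batch, other scaling and filters, and leaving out each library.

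The comparison, the 44 gene lists (1367 symbols, 1208 tested) and the tests were chosen with earlier results of these data known. Named genes are the 12 largest rises and falls among calls that held under each omission, did not overlap and reached a mean of 10 CPM, the 6 largest rises and falls in CPM, Bap1, Smn1 and 4 granzymes, and up to 4 called list members per direction of lowest adjusted p. Cell markers and the genes set beside WT are named outside that rule. Some genes that this rule names are not reported here.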

Additional observations from a re-analysis of the deposited data

How the results depend on the processing

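Called autosomal genes numbered 2524 higher and 2849 lower. Leaving out 1 library at a time gave 1566 to 2763 higher and 1792 to 3146 lower. Replicate numbers do not pair these samples, since same-numbered Bap1KO and Smn1OE libraries come from different media batches and their deviations correlated at -0.022, -0.23 and -0.058. With the replicate number as a block in the 6 libraries, 1306 genes were called higher and 1394 lower. DESeq2 called 2951 and 3065, limma voom with a random term for media batch 2539 and 2783, and a fit of the 6 libraries alone 2322 and 2545. No gene called in the fit reported was called in the opposite direction by any of these alternatives. No replicate pair agreed within counting error (chi-square per degree of freedom of 37 or more). Depth limits mainly genes far under 1 CPM, where some libraries hold 0 or 1 read.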

Other observations

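Cell adhesion genes outside the matrix moved upward in larger number. Of 32 cadherin and junction genes tested, 13 were called higher and 5 lower (median log2 fold change 0.45). Cdh2, N-cadherin, stood at 96, 168 and 122 CPM in Bap1KO and 263, 229 and 326 CPM in Smn1OE (1.08, SE 0.211, adjusted p = 0.00303), and Alcam, an adhesion molecule of the immunoglobulin family, at 11.3, 14.9 and 5.95 CPM in Bap1KO and 36.8, 42.1 and 48.1 CPM in Smn1OE (1.98, SE 0.337, adjusted p = 0.00153). Gjb2, a connexin, fell from 88, 29 and 72.6 CPM to 4, 11.5 and 2.03 CPM (-3.43, SE 0.721, adjusted p = 0.0044). The higher count became 7 without Bap1KO replicate 1, Bap1KO replicate 3 or Smn1OE replicate 3 or among genes of at least 5 CPM, and the lower count 2 without Smn1OE replicate 3 and 3 without Bap1KO replicate 1 or Smn1OE replicate 1.

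The largest rises that held under every omission of a compared library included genes of no list. Dusp4, a phosphatase of MAP kinases, stood at 12.8, 43.8 and 26.2 CPM in Bap1KO and 117, 99.4 and 170.2 CPM in Smn1OE (2.22, SE 0.383, adjusted p = 0.00161). Pdk4, which holds back pyruvate oxidation, stood at 1.95, 6.74 and 3.25 CPM in Bap1KO and 21.3, 18.7 and 23.9 CPM in Smn1OE (2.42, SE 0.414, adjusted p = 0.00157), and Acsbg1, an acyl-CoA synthetase, at 1.15, 3.81 and 2.38 CPM in Bap1KO and 16.2, 14 and 20.2 CPM in Smn1OE (2.78, SE 0.331, adjusted p = 0.000281). Cxadr, a junction protein and virus receptor, rose from 5.14, 3.14 and 4.23 CPM to 19.4, 17.6 and 22.3 CPM (2.24, adjusted p = 0.000139), and P2rx7, an ATP-gated channel, from 1.88, 2.09 and 2.56 CPM to 15.9, 5.71 and 8.88 CPM (2.23, adjusted p = 0.000997). Among the falls, Dio3, the enzyme that inactivates thyroid hormone, went from 103, 51.2 and 137 CPM to 8.44, 6.31 and 0.151 CPM (-4.27, SE 0.997, adjusted p = 0.00729), and Ism1, a secreted protein, from 20.5, 4.7 and 12.7 CPM to 1.33, 1.46 and 0.492 CPM (-3.51, adjusted p = 0.00179).

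Position and level were described without a test. Chromosome 13 had the highest share of tested genes called higher, 147 of 690 (21.3%), and chromosome 11 the highest share called lower, 273 of 1284 (21.3%). Under 1 CPM, 527 of 4082 tested genes were called higher and 237 lower, whereas at 1 to 10 CPM 498 of 3618 were higher and 782 lower. Long non-coding and unclassified genes had 206 of 1735 higher and 121 lower.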
